A study of Homo sapiens with 34 samples.

Results

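WNT ligands are secreted glycoproteins that bind Frizzled (FZD) receptors at the cell surface, and secreted antagonists of the SFRP and DKK families limit that binding or the use of the LRP co-receptors. In the canonical branch, receptor binding stabilises beta-catenin, which acts with TCF/LEF factors on target genes, while other WNT ligands act through planar polarity or calcium signalling. The pathway is known for its roles in the specification, migration and differentiation of the neural crest, the embryonic tissue from which neuroblastoma arises. The histone state of these genes was examined here in KELLY cells. The set comprised 38 of the 19970 protein-coding genes of chromosomes 1 to 22 and X, chosen by symbol alone: 19 WNT ligands, 10 FZD receptors, 5 antagonists of the SFRP and FRZB family and 4 DKK inhibitors.

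KELLY is an established line grown from a human neuroblastoma, in which MYCN is amplified. All cells carried a doxycycline-inducible short hairpin RNA to RUNX1T1, a transcriptional co-repressor, and were exposed either to DMSO, the solvent control, or to Doxycycline, which induces the hairpin, for 72 h. A line with a control hairpin exposed to doxycycline was not analysed here, so effects of the hairpin and of the drug itself cannot be told apart. Peaks of chromatin immunoprecipitation sequencing (ChIP-seq) were available for 5 marks with 3 libraries per mark and treatment: H3K4me1, found at enhancers and at promoter edges, H3K4me2, found at both kinds of element, H3K4me3, typical of promoters, H3K27ac, a mark of activity, and H3K27me3, deposited by Polycomb complexes and linked to repression.

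The lists hold called peaks and no read counts, so each value below is the presence of a peak or the share of a window that peaks covered. The labels do not say that libraries came from separate cultures, so p-values measure only the spread between libraries. Peaks of the 15 DMSO libraries were called at 71.9 to 81.1 M reads and those of the 15 Doxycycline libraries at 57.0 to 63.4 M, ranges that do not overlap, so effects of the treatment and of this depth cannot be told apart. The H3K27me3 libraries were of 2 kinds. Replicate 1 of DMSO and replicates 1 and 2 of Doxycycline had fragment length estimates of 256 to 280 bp and covered 306 to 369 Mb, while the other 3 had estimates of 105 to 112 bp and covered 123 to 131 Mb. The adrenergic neuroblastoma markers HAND2, GATA3, ISL1, TH, DBH and PHOX2A each carried H3K4me3 and H3K27ac without H3K27me3 at their start sites in both treatments. Of 6 markers of other cell types, CD3E, PECAM1 and ALB carried H3K27me3 without H3K4me3 in both treatments, EPCAM carried both of these marks and PTPRC carried neither. EPCAM also had H3K27ac in 3 of 3 libraries of each treatment. COL1A1 had H3K4me3 in 3 of 3 libraries of each treatment. It had H3K27ac in 3 DMSO libraries and 1 Doxycycline library, and H3K27me3 in 2 and 3, so its H3K27me3 differed by 1 library.

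The members fell into contrasting promoter states, and 4 promoters are shown first to illustrate them. A gene was called marked in a treatment when 3 of 3 libraries had a peak within 1 kb of any of its annotated start sites. Genes with H3K4me3 and H3K27ac and no H3K27me3 were called active, those with H3K4me3 and H3K27me3 bivalent, those with H3K27me3 and no H3K4me3 Polycomb only, those with H3K4me3 alone of the 3 marks H3K4me3 only, and the rest neither. The bivalent and Polycomb-only calls did not consider H3K27ac, so genes so called may carry it. DKK1, SFRP2 and WNT1 had the highest share of the start window covered by the defining mark, averaged over 6 libraries, among active, bivalent and Polycomb-only members with an entry in the promoter table (in the bivalent class SFRP2 tied with WNT2 and in the Polycomb-only class WNT1 tied with WNT3A, and the higher fold enrichment decided). WNT8A, also Polycomb only, was added after its values were seen because its promoter held the fewest CpG dinucleotides for its base composition. The 250 bases before each start site are printed 5′ to 3′ on the gene's strand, from RefSeq (GRCh38.p14), with every CpG dinucleotide in capitals.
DKK1 (active, chr10:52314031-52314280, + strand, 18 CpG): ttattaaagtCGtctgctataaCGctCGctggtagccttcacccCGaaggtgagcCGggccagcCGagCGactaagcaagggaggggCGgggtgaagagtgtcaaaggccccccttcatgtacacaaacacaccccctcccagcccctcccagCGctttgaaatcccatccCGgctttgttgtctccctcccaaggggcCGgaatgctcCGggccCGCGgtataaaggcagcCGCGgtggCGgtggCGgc
SFRP2 (bivalent, chr4:153789084-153789333, − strand, 11 CpG): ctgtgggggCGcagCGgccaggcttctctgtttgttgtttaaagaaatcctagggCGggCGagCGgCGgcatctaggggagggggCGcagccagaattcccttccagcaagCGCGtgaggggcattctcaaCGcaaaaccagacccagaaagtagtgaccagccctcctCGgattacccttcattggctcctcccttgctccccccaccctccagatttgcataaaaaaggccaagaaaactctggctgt
WNT1 (Polycomb only, chr12:48978072-48978321, + strand, 29 CpG): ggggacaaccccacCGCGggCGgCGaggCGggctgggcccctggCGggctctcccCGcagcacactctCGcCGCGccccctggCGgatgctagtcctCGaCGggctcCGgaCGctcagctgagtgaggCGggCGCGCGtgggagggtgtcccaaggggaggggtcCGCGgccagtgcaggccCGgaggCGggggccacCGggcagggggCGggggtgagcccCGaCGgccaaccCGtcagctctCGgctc
WNT8A (Polycomb only, chr5:138083783-138084032, + strand, 4 CpG): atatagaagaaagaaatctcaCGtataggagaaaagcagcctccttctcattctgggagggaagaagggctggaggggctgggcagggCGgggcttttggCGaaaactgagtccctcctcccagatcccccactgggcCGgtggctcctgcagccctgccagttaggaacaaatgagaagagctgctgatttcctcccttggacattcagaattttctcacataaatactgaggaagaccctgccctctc

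The promoter of WNT1 was thus dense in CpG and that of WNT8A sparse, although both were called Polycomb only. Their H3K27me3 was not alike. Bases under H3K27me3 in 3 of 3 libraries filled all 2001 bp of the WNT1 window in both treatments. At WNT8A they measured 1084 bp in DMSO and 119 bp in Doxycycline, of 2096 bp. At a q of 0.001 or less, WNT8A and WNT8B fell in the neither class in both treatments. Over the window from 250 bases before to 50 after the start, available for 26 of the 38 members, the median ratio of observed to expected CpG was 0.80, against 0.74 over 21571 windows of protein-coding genes. Class medians were 0.85 in 7 active members, 0.80 in 12 bivalent members and 0.75 in 6 Polycomb-only members. WNT8A (0.18), WNT8B (0.26) and WNT5B (0.35) were the lowest, and WNT2 (1.12) and WNT9A (1.03) the highest. Of the motifs searched on both strands, the E-box CACGTG occurred in 0 of 26 members' windows and 8.34% of all windows, the E-box CATCTG in 1 of 26 (WNT5B) and 12.1%, and the TCF/LEF core CTTTGAT in 0 of 26 and 1.99%. A match, or none, describes only these letters in these windows.

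Bivalent and Polycomb-only states were more frequent among members than among all genes, already in DMSO. In DMSO, 13 members were active (59.4% of all genes), 16 bivalent (11.1%), 7 Polycomb only (9.77%), 1 H3K4me3 only (2.11%) and 1 neither (17.6%). H3K27me3 marked 23 of 38 members in DMSO and 25 in Doxycycline, against 20.9% and 23.2% of all genes. H3K27ac marked 17 and 14 members, against 65.8% and 65.2%. H3K4me3 marked 30 and 29 members (72.6% and 72.3% of all genes), H3K4me2 32 and 32 (72.3% and 73.8%) and H3K4me1 31 and 32 (66.3% and 66.1%). The members' shares were thus above those of all genes for H3K27me3 and below them for H3K27ac, as descriptions with no test.

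**Figure D1:**
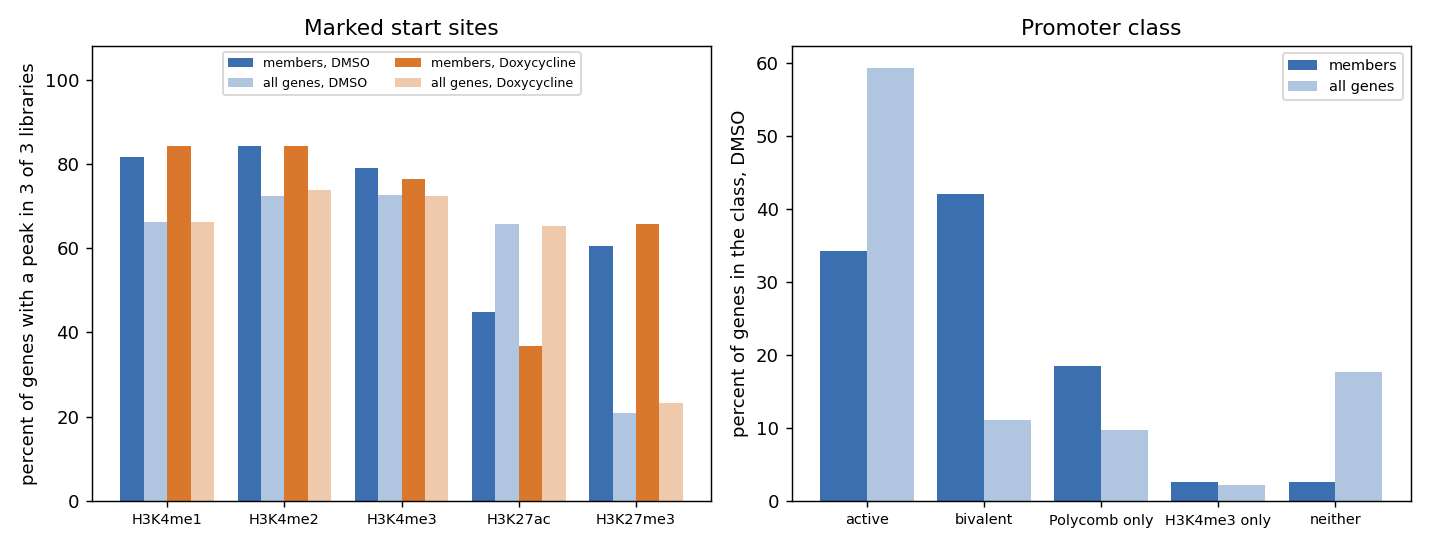
Left, percent of the 38 members (full colour) and of all 19970 protein-coding genes (pale) with a peak in 3 of 3 libraries at start sites, by mark and treatment (y axis, percent of genes). Right, percent of members and of all genes in each promoter class in DMSO. Bivalent holds 16 members and active 13, while 59.4% of all genes are active.

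The states differed by role, as counts with no test. Among WNT ligands, 11 of 19 were bivalent and 5 were Polycomb only. WNT1, WNT3A, WNT7A, WNT8A and WNT8B made up the latter group, and WNT1, WNT3A, WNT8A and WNT8B had no H3K4me3 peak in any of the 6 libraries. WNT1 and WNT3A are classical activators of the beta-catenin branch. Only WNT3 and WNT10A were active among ligands, in both treatments, and these calls depended on the start sites used. With the canonical start site alone, WNT3 was H3K4me3 only in both treatments, WNT10A was H3K4me3 only in Doxycycline, and WNT5B was active in both. The bivalent ligands were WNT2, WNT2B, WNT4, WNT5A, WNT5B, WNT7B, WNT9A, WNT9B, WNT10B, WNT11 and WNT16, which include WNT5A and WNT11, known for signalling outside the beta-catenin branch. WNT5A and WNT5B also had H3K27ac in 3 of 3 DMSO libraries, and WNT5B in 3 of 3 Doxycycline libraries. By the rule of 3 of 3 libraries, FZD receptors showed the opposite balance. In DMSO 7 of 10 were active (FZD2, FZD3, FZD4, FZD5, FZD6, FZD7 and FZD8) and FZD1, FZD9 and FZD10 bivalent. This balance depended on the rule. FZD6, FZD7 and FZD8 had H3K27me3 in 2 of 3 DMSO libraries and were bivalent in both treatments with 2 of 3 libraries. FZD1 and FZD9 also had H3K27ac in 3 of 3 DMSO libraries, and FZD9 was active in DMSO at a q of 0.001 or less. Of the secreted Frizzled-related antagonists, FRZB and SFRP1 were active, SFRP2 and SFRP5 bivalent and SFRP4 Polycomb only. Of the DKK inhibitors, DKK1 and DKK3 were active, DKK2 was Polycomb only and DKK4 was in neither state.

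**Figure D2:**
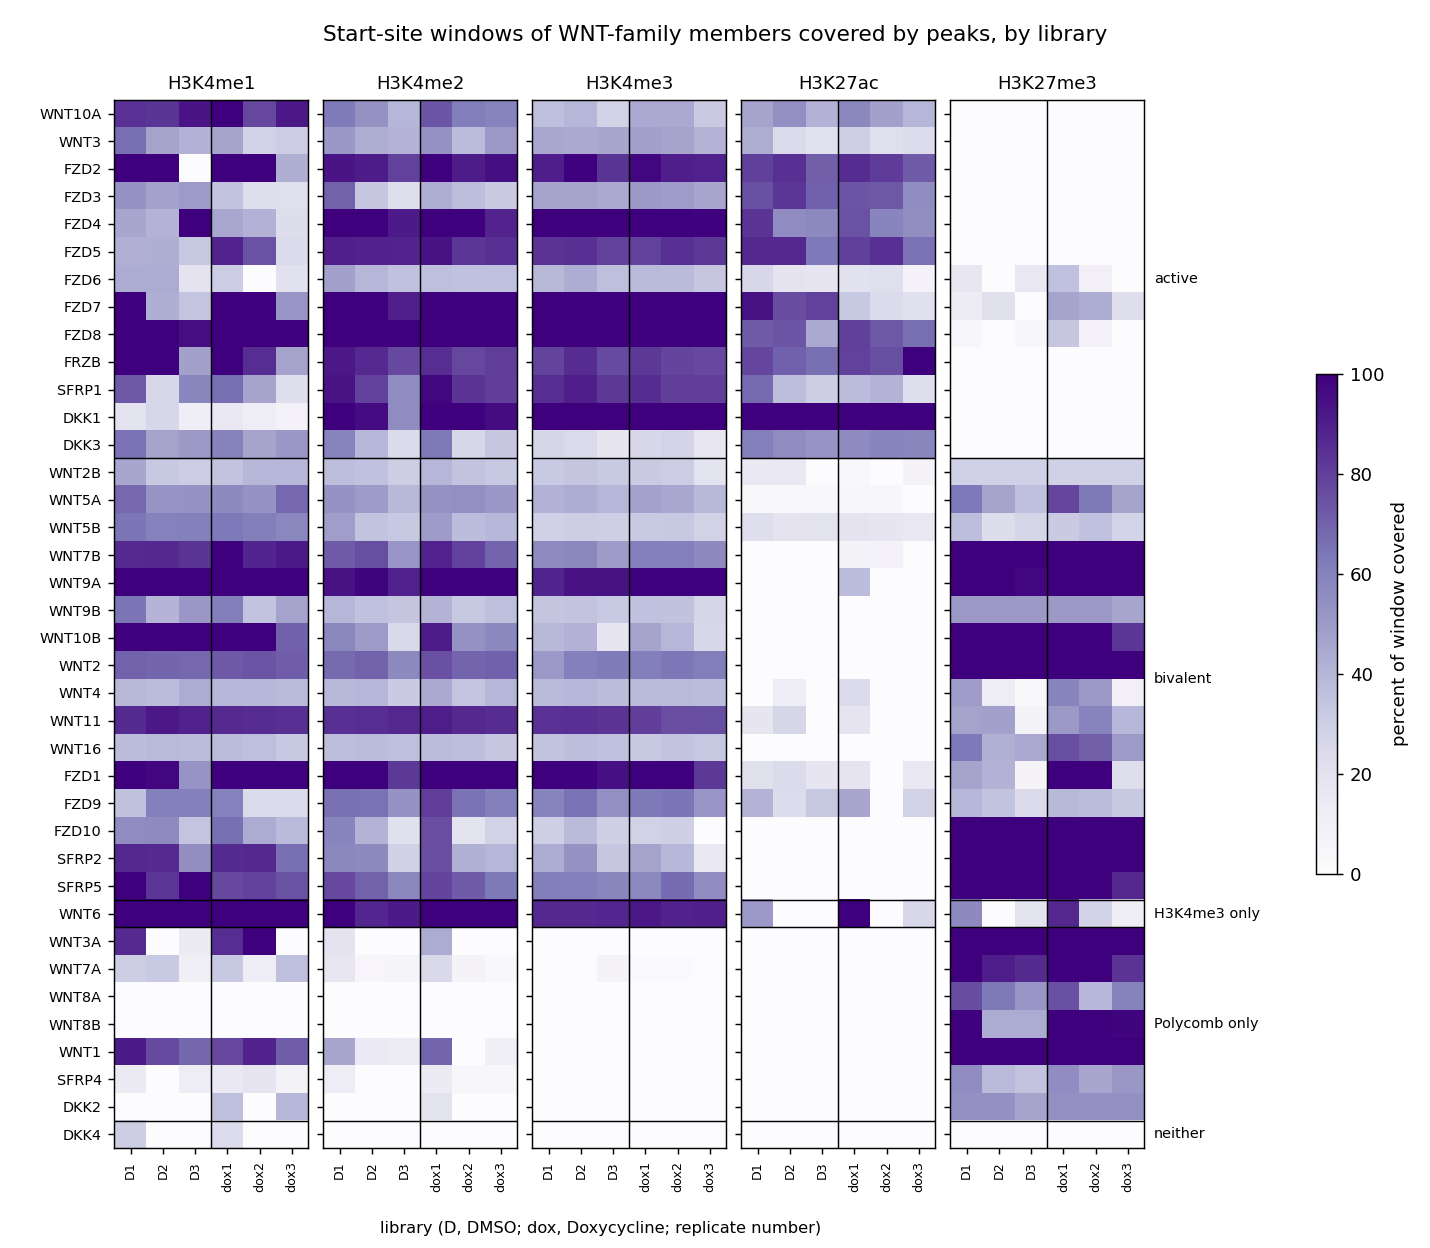
Percent of each member's start-site window (1 kb either side of every annotated start) covered by peaks, from 0 (white) to 100 (dark), with a row per gene, a panel per mark and a column per library (D, DMSO, and dox, Doxycycline, each with replicate numbers). Rows are grouped by the promoter class in DMSO, and H3K27me3 fills the lower rows while H3K27ac fills the upper ones.

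H3K27ac was widest at DKK1, the only member whose window was covered completely in 3 of 3 libraries of both treatments. Its peaks there measured 8676, 10384 and 11553 bp in DMSO and 3873, 7278 and 7286 bp in Doxycycline. The window itself could not show this difference, but in the 20 kb flanks the H3K27ac cover of DKK1 was 16.5, 20.3 and 21.0% in DMSO and 10.8, 13.3 and 12.7% in Doxycycline, with no overlap. DKK3 had H3K27ac over 60.7, 55.8 and 52.4% of its window in DMSO and 56.0, 58.7 and 58.3% in Doxycycline, which overlapped. Averaged over the 6 libraries, the widest receptors were FZD2, with 80.0, 84.7 and 70.9% in DMSO and 85.9, 80.9 and 72.3% in Doxycycline, and FZD5, with 86.9, 87.1 and 63.4% against 79.8, 84.8 and 65.5%. The treatments overlapped in both receptors. In DMSO alone FZD7 was wider, at a mean of 83.2% against 79.1% for FZD5 and 78.5% for FZD2. FRZB was covered over 77.9, 70.6 and 66.1% in DMSO and 79.6, 75.7 and 100.0% in Doxycycline, and SFRP1 over 67.9, 37.1 and 30.4% against 37.5, 41.0 and 22.5%. Among ligands, WNT10A had 46.5, 54.3 and 41.2% in DMSO and 57.7, 47.9 and 40.0% in Doxycycline, and WNT6 had 50.6, 0 and 0% against 100, 0 and 25.7%. WNT6 thus varied more among replicates than between treatments.

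H3K27me3 was widest at WNT1, WNT2 and WNT3A among ligands, at FZD10 among receptors and at SFRP2 among antagonists, each covered at 100% in all 6 libraries. SFRP5 was at 100% in 3 DMSO and 2 Doxycycline libraries and at 87.3% in the remaining one. FZD1 came next among receptors over the 6 libraries, with 46.3, 41.2 and 6.80% in DMSO and 100, 100 and 22.3% in Doxycycline (difference 42.6 points, exact two-sided permutation p = 0.3). In DMSO alone FZD1 (mean 31.5%) and FZD9 (32.9%) were close. Within the long-fragment libraries FZD1 was at 46.3% in DMSO and 100 and 100% in Doxycycline, and within the short-fragment ones at 41.2 and 6.80% against 22.3%. DKK2 was covered over 54.2, 54.2 and 46.7% in DMSO and 54.2% in each Doxycycline library, and DKK1, DKK3 and DKK4 had no H3K27me3 peak. The peaks could be very long in the long-fragment libraries: the one over FZD10 measured 115235 bp in replicate 1 of DMSO and 137450 and 115212 bp in replicates 1 and 2 of Doxycycline, against 6424 to 15594 bp in the short-fragment libraries.

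Bivalency can arise from marks on the same or on neighbouring nucleosomes, so consensus bases (covered in 3 of 3 libraries) were compared. In DMSO all 16 bivalent members had H3K4me3 and H3K27me3 on shared bases. H3K27me3 covered all H3K4me3 bases in 8 of them (WNT7B, WNT9B, WNT10B, WNT2, WNT16, FZD10, SFRP2 and SFRP5). At the other end, the shared part was 1.84% of H3K4me3 bases at WNT11, 6.59% at FZD1 and 7.97% at WNT4 in DMSO, and 43.9%, 27.2% and 15.0% in Doxycycline. The consensus H3K27me3 at these start sites was short in DMSO. At WNT4 it measured 174 bp, of which 145 lay on H3K4me3 bases, at FZD1 136 bp, of which 124 did, and at WNT11 292 bp, of which 61 did. The narrowest library limits such bases. Short-fragment H3K27me3 libraries were replicates 2 and 3 of DMSO and replicate 3 of Doxycycline, and their part in the higher Doxycycline shares was not tested. At a q of 0.001 or less, WNT4 and WNT11 were H3K4me3 only in both treatments and FZD1 in DMSO. H3K27ac and H3K27me3 shared no consensus base in any member in either treatment. Since libraries are bulk populations of cells, shared bases do not show that the marks were on the same chromosomes.

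The comparison of Doxycycline with DMSO asked whether the promoter state of these genes moved with the induction of the hairpin. No member had a peak in 3 of 3 libraries of one treatment and 0 of 3 of the other in any mark. Over all genes such separation was found for 0.315% in H3K4me1, 0.03% in H3K4me2, 0.13% in H3K4me3, 0.33% in H3K27ac and 0.19% in H3K27me3. Differences of 2 libraries occurred at WNT7B, which had no H3K27ac peak in its start window in DMSO and peaks over 7.16 and 7.76% of that window in Doxycycline replicates 1 and 2, at SFRP4, with H3K4me2 over 13.1, 0 and 0% in DMSO and 13.9, 4.50 and 4.56% in Doxycycline, and at DKK2, with H3K4me1 in 0 DMSO libraries and over 36.5 and 39.6% of the window in Doxycycline replicates 1 and 3. These pairs decide the count of 0: WNT7B in H3K27ac separated without Doxycycline replicate 3, SFRP4 in H3K4me2 without DMSO replicate 1 and DKK2 in H3K4me1 without Doxycycline replicate 2, which gave 1 member each. No share of all genes is available for differences of 2 libraries, so these members are named as descriptions only.

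Promoter class differed between treatments in 3 members, against 5.81% of all genes. FZD7 was active in DMSO and bivalent in Doxycycline, FZD10 was bivalent in DMSO and Polycomb only in Doxycycline, and WNT6 was H3K4me3 only in DMSO and bivalent in Doxycycline. Each of these changes of name rested on 1 library. The class was the same in both treatments for FZD7 without H3K27me3 of DMSO replicate 3, for WNT6 without H3K27me3 of DMSO replicate 2 and for FZD10 without H3K4me3 of Doxycycline replicate 3. At FZD10, H3K4me3 covered 30.01, 38.2 and 29.5% of the window in DMSO and 28.3, 29.7 and 0% in Doxycycline, so replicate 3 alone lacked the peak. At WNT6, H3K27me3 covered 56.3, 0 and 19.2% in DMSO and 87.5, 28.1 and 11.2% in Doxycycline, with fold enrichments of 2.86 or less. At FZD7, DMSO replicate 3 alone lacked H3K27me3 in the start window. It had a peak from 1067 to 2315 bp downstream of the start, just outside the 1 kb edge. In the other libraries the downstream peak began at 529 to 729 bp, so the call turned on the edge of the window. FZD7 was bivalent in both treatments without replicate 3, with 2 of 3 libraries or in windows of 2.5 kb. FZD6 and FZD8 stayed active by the same rule with H3K27me3 in 2 of 3 libraries of each treatment. Both differed in class once H3K27me3 was read without DMSO replicate 2 or without Doxycycline replicate 3 (4 and 5 members in all).

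FZD7 differed most in covered share. FZD7 is a Frizzled receptor for several WNT ligands with known roles in neural crest and stem cells, lies at chr2:202033855-202038441 on the + strand and has 1 annotated start site. H3K27ac covered 94.0, 76.5 and 79.3% of its window in DMSO and 32.8, 24.5 and 21.0% in Doxycycline. The mean fell from 83.2% ± 9.39 to 26.1% ± 6.05 (SD, n = 3 per treatment), a difference of −57.1 points. In windows of 2.5 kb the difference was −24.2 points. All Doxycycline libraries lay below all DMSO libraries, which gave an exact two-sided permutation p = 0.1, the smallest possible with 3 against 3 libraries, and p = 0.878 after Benjamini-Hochberg adjustment over all genes tested. Of the 14274 genes tested, 8 fell by as much or more (0.056%), FZD7 included. The H3K27ac peak at the start shortened from 1919, 1530 and 1742 bp to 656, 491 and 420 bp. Its fold enrichment over input was 3.76, 4.05 and 2.93 in DMSO and 2.50, 3.59 and 2.32 in Doxycycline, which overlapped, so the width separated the treatments and the height did not.

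H3K27me3 at FZD7 moved the other way. It covered 13.6, 20.7 and 0% of the window in DMSO and 46.3, 43.4 and 22.4% in Doxycycline, with no overlap (difference 26.0 points, exact permutation p = 0.1, adjusted p = 1 over all genes). In windows of 2.5 kb the difference was 14.3 points and the treatments overlapped, and with peaks of q 0.001 or less it was 11.3 points. In long-fragment libraries the values were 13.6% in DMSO and 46.3 and 43.4% in Doxycycline. In short-fragment libraries they were 20.7 and 0% in DMSO and 22.4% in Doxycycline, so the kinds of library moved with the treatments and their part in the result was not tested. H3K4me3 covered 100% of the window in all 6 libraries, with fold enrichments of 20.8 to 53.2, so the window could not show a difference in its width. In the gene body and 20 kb flanks, H3K4me3 covered 3.19% ± 0.464 in DMSO and 2.31% ± 0.189 in Doxycycline (SD, n = 3 per treatment), with no overlap. H3K27ac lists as a whole covered 113 to 148 Mb in DMSO and 101 to 136 Mb in Doxycycline, and the part of calling depth in the fall at FZD7 was not tested.

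**Figure D3:**
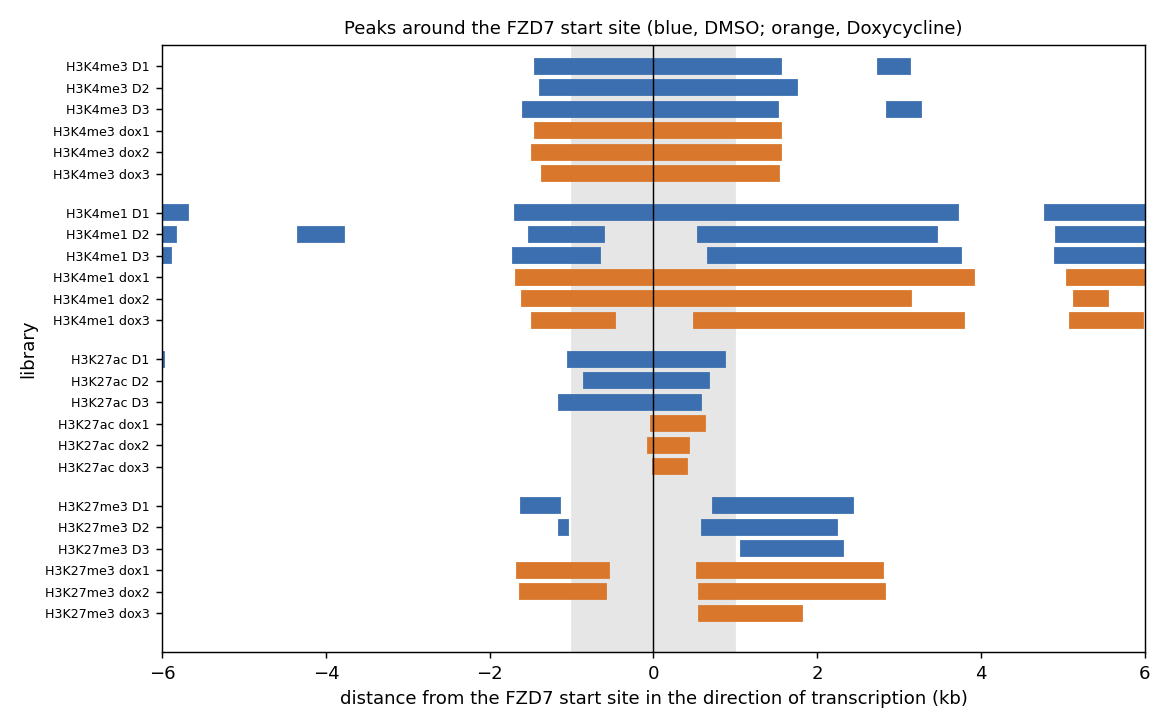
Peaks of 4 marks (rows, one per library, D for DMSO in blue and dox for Doxycycline in orange) within 6 kb of the FZD7 start site (x axis, kb in the direction of transcription; grey, the start window of 1 kb either side; peaks are clipped at the edges). H3K27ac peaks run from upstream of the start in DMSO (1530 to 1919 bp) and are shorter in Doxycycline (420 to 656 bp), and H3K27me3 peaks lie to either side of the start.

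The surroundings of FZD7 differed as well. In the gene body and 20 kb flanks, leaving out start windows, H3K27ac covered 3.56, 1.25 and 4.06% in DMSO and 0% in each Doxycycline library. H3K4me1 there covered 39.9, 37.5 and 41.3% in DMSO and 32.4, 20.1 and 22.98% in Doxycycline. A distal element with H3K4me1 and H3K27ac in all DMSO libraries, at chr2:202044503-202053297 and 10.6 kb from the start site, carried H3K4me1 without consensus H3K27ac in Doxycycline. H3K27ac cover was thus lower with Doxycycline both at the start site and in the flanks of FZD7.

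Covered share did not overlap between treatments in 13 pairs of gene and mark, held by 11 members. By mark, the counts above and below DMSO were 2 and 2 of 36 members with a peak for H3K4me1 (3.97% and 5.89% of all genes tested), 1 and 0 of 35 for H3K4me2 (1.77% and 0.549%), 2 and 3 of 31 for H3K4me3 (2.94% and 6.15%), 0 and 2 of 23 for H3K27ac (4.92% and 6.47%) and 1 and 0 of 27 for H3K27me3 (2.15% and 0.0282%). These counts are few, and most are close to the background. Each pair had an exact permutation p = 0.1, and the adjusted p was at least 0.878 in each, so none passed 0.05. Comparing same-numbered libraries, as a replicate block, the differences had one sign in all 3 pairs in 7 members for H3K4me1 (29.4% of all genes tested), 10 for H3K4me2 (19.4%), 10 for H3K4me3 (34.2%), 5 for H3K27ac (29.6%) and 6 for H3K27me3 (14%), with a smallest possible p of 0.25.

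Besides FZD7, the differences over 10 points were in H3K4me1. FZD3, a receptor used in axon guidance, went from 53.2, 47.5 and 49.7% in DMSO to 35.0, 22.2 and 21.6% in Doxycycline (difference −23.9 points), but the direction turned when only its canonical start site was used (8.16 points). SFRP5, a secreted antagonist, went from 100, 82.7 and 100% to 77.1, 79.2 and 74.3% (−17.4 points). The remaining 9 pairs differed by less than 10 points. H3K4me3 was narrower in Doxycycline at WNT2B (−5.54 points), WNT11 (−7.05) and WNT16 (−2.42) and wider at WNT9A (7.95) and WNT6 (3.18). H3K4me2 was wider at WNT9A (5.95), H3K4me1 at WNT7B (7.56) and WNT2 (3.60), and H3K27ac was narrower at WNT5B (−3.04).

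**Figure D4:**
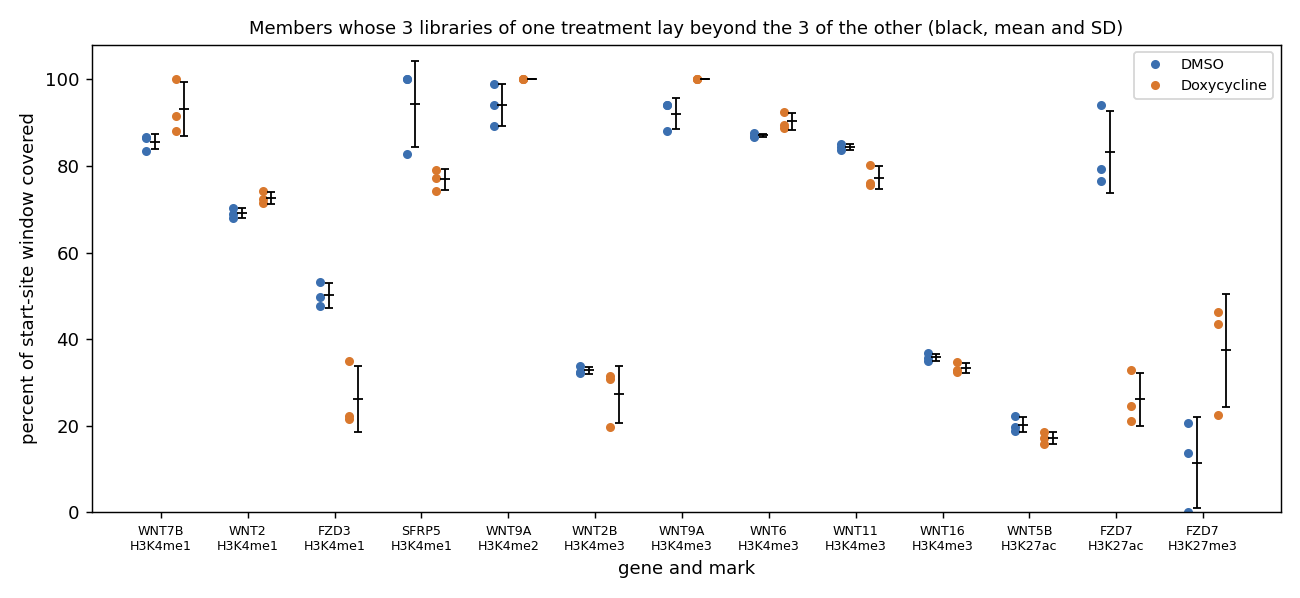
Percent of the start-site window covered by peaks (y axis) for the 13 pairs of gene and mark whose 3 Doxycycline libraries (orange) lay entirely above or below the 3 DMSO libraries (blue), with the mean and SD in black. FZD7 stands out with 26.1% against 83.2% in H3K27ac, while 9 pairs differ by less than 10 points.

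Around the genes, in gene bodies and 20 kb flanks, H3K27me3 covered a median of 5.92% of members' bases in DMSO and 9.87% in Doxycycline, against 0.997% and 1.57% over all genes. Mean H3K27me3 cover over members was 24.7, 13.0 and 11.2% in DMSO and 26.96, 24.4 and 13.6% in Doxycycline, so the long-fragment libraries (24.7% against 26.96 and 24.4%) and the short-fragment ones (13.0 and 11.2% against 13.6%) differed more by kind than by treatment. The flanks of FZD10 were covered at 100, 66.5 and 60.1% in DMSO and 100, 100 and 75.4% in Doxycycline, and those of WNT8A, which had no H3K27ac peak in any library, at 74.3, 49.9 and 40.2% against 78.3, 79.7 and 51.0%. Median H3K27ac cover was 1.83% in DMSO and 0.873% in Doxycycline for members, against 1.73% and 1.29% over all genes. The widest were WNT11 and WNT7B, both with bivalent promoters: flank H3K27ac covered 50.9, 48.7 and 35.0% in DMSO and 50.3, 37.2 and 31.3% in Doxycycline at WNT11, and 45.5, 38.3 and 15.6% against 55.8, 54.8 and 27.6% at WNT7B, with overlap in both. Median H3K4me1 cover was 11.7% and 9.83%, against 5.57% and 4.59%.

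Flank cover did not overlap between treatments for few members. The counts above and below DMSO were 2 and 3 of 38 members with a peak for H3K4me1 (2.39% and 9.17% of all genes tested), 0 and 5 of 34 for H3K4me3 (2.96% and 7.77%), 1 and 3 of 28 for H3K27ac (4.57% and 12.8%) and 1 and 0 of 31 for H3K27me3 (1.04% and 0.077%). H3K27ac was below DMSO in FZD3, FZD7 and DKK1 and above it in DKK4, where it covered 0.69 to 1.07% in Doxycycline and none in DMSO. H3K27me3 was above DMSO in WNT10A alone, at 5.55, 1.73 and 2.07% against 16.8, 13.4 and 5.73%. WNT10A stood 6.618 kb from WNT6, so their flanks overlap, as do those of WNT10B and WNT1 (6.586 kb apart) and of WNT9B and WNT3 (0.046 kb apart). H3K4me1 was below DMSO in WNT4 (46.2% ± 4.71 against 32.0% ± 8.06, SD, n = 3), FZD4 and FZD7 and above it in WNT10B and FZD1. H3K4me3 was below DMSO in WNT8B, WNT11, FZD7, SFRP5 and DKK1.

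**Figure D5:**
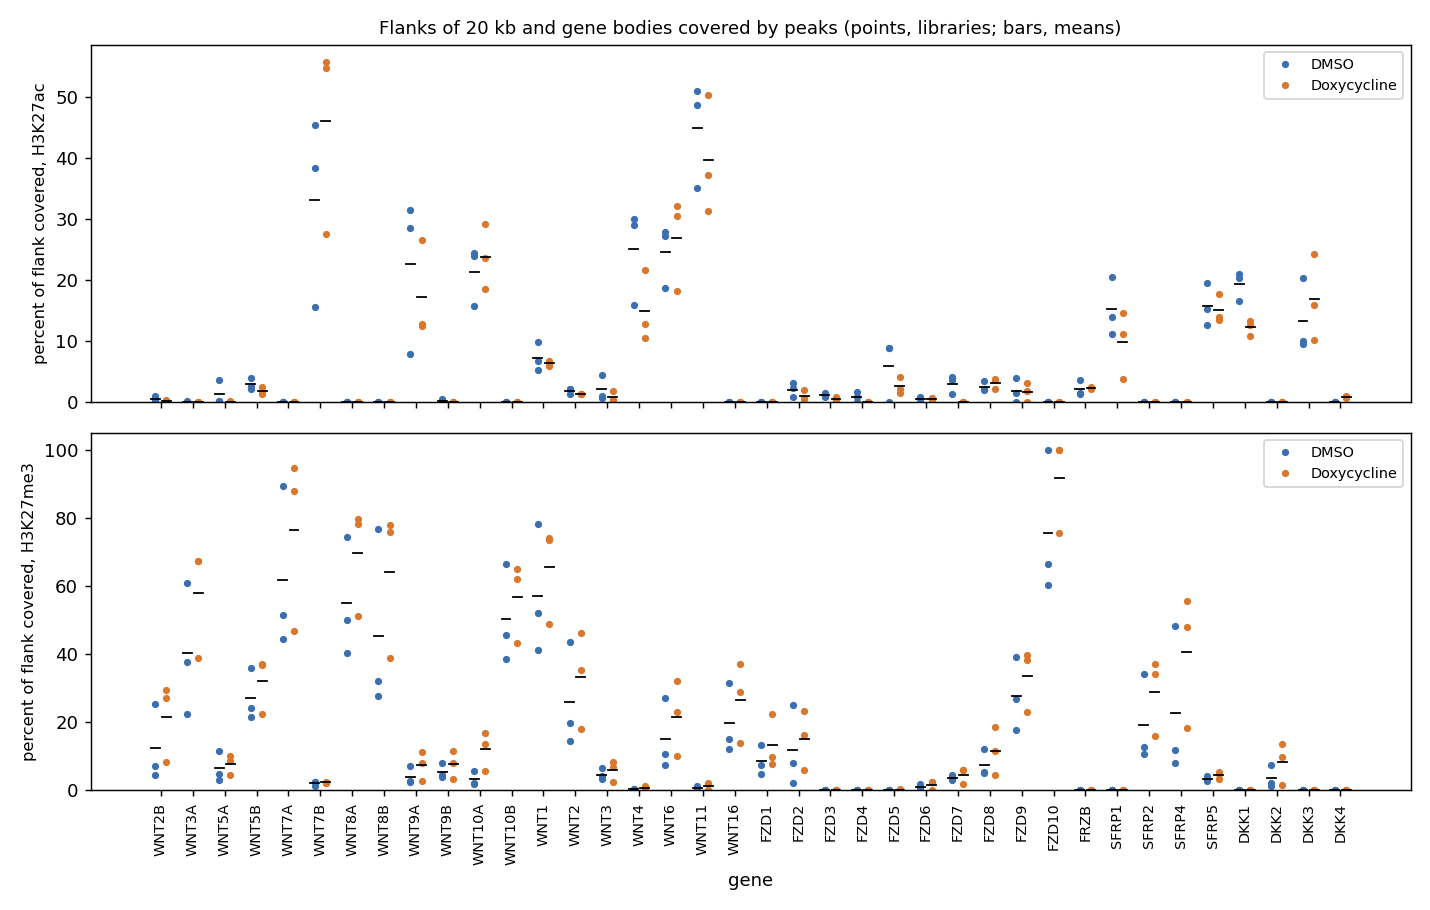
Percent of gene body and 20 kb flanks, start windows left out, covered by H3K27ac peaks (top) and H3K27me3 peaks (bottom) for each member (x axis); points are libraries (blue, DMSO; orange, Doxycycline) and black bars are means. The flanks of FZD10 reach 100% in H3K27me3 and those of FZD7 fall to 0% in H3K27ac with Doxycycline.

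Distal elements were counted as consensus H3K4me1 regions within 20 kb of a member, away from start sites and without H3K4me3. Active elements, with H3K27ac, numbered 29 in DMSO near 12 members and 26 in Doxycycline near 11. Primed elements, with H3K4me1 alone, numbered 40 and 42, and poised elements, with H3K27me3, 5 and 10. Ligands held 23 of the 29 active elements in DMSO, with 7 at WNT7B and 6 at WNT9A, although the promoters of both were bivalent. In Doxycycline WNT7B held 5 and WNT9A 4. The number was also lower in Doxycycline at WNT4 (4 and 3), WNT5B (1 and 0) and SFRP1 (4 and 2), and higher at WNT11 (2 and 5) and SFRP5 (1 and 3). Fewer elements need not mean less cover. At WNT7B the mean flank H3K27ac was 33.1% in DMSO and 46.1% in Doxycycline, with overlap. The receptors had 1 active element in each treatment, at FZD7 in DMSO and at FZD6 in Doxycycline, and the DKK inhibitors had none. Regions that touch a start window or H3K4me3 are left out, so a count of none does not mean that H3K27ac was absent. It covered 16.5 to 21.0% of the DKK1 flanks in DMSO. Poised elements at WNT5B numbered 0 in DMSO and 3 in Doxycycline. A poised call needs H3K27me3 in 3 of 3 libraries. The short-fragment H3K27me3 libraries, which covered fewer bases, were replicates 2 and 3 of DMSO and replicate 3 of Doxycycline. Kind of library and treatment thus cannot be told apart in the poised counts. Elements were counted around members alone, so no background over all genes is given.

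Of the other genes of the pathway, a list of 42 drawn up by role, 28 were active in each treatment. That share was near the 59.4% of all genes that were active in DMSO. The active genes included the co-receptors LRP5 and LRP6, WLS and PORCN for WNT secretion, and CTNNB1, which encodes beta-catenin. The 11 bivalent genes (11.1% of all genes in DMSO) included RSPO1, RSPO2, RSPO3 and RSPO4, which encode R-spondins, the R-spondin receptors LGR5 and LGR6, and the negative regulators AXIN2, NOTUM and NKD2. LGR5 and AXIN2 also had H3K27ac in 3 of 3 libraries of each treatment. RNF43, WIF1 and SOST were Polycomb only, and no gene of the list changed class, against 5.81% of all genes. RNF43, a ubiquitin ligase that removes Frizzled receptors from the membrane, had H3K27ac in 3 of 3 DMSO libraries and 0 of 3 Doxycycline libraries, and H3K4me3 in 2 and 0, with H3K27me3 in 3 of 3 of each. NOTUM, an enzyme that inactivates WNT ligands, had H3K27ac in 1 and 3 libraries, ROR2, a WNT5A receptor, H3K4me1 in 3 and 1, and DACT1 H3K27me3 in 0 and 2. Separation in H3K27ac, as at RNF43, was found for 0.33% of all genes. For differences of 2 libraries no such share is available.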

How the data were processed

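ChIP-seq peak lists of 5 histone marks from 15 DMSO and 15 Doxycycline libraries were analysed (72 h), and 4 inputs entered only through peak calls. Per the study's methods and the file headers, the authors aligned reads to hg38, kept mapping quality of 30 or more and called peaks per library with MACS2 2.1.1.20160309, in broad mode at q 0.05 (regions linked at q 0.1) for H3K4me1, H3K27ac and H3K27me3 (18 lists) and in narrow mode at p 1e-05 for H3K4me2 and H3K4me3 (12 lists). The mode and thresholds are those of the headers, whereas the study's methods name q 0.05 for every mark. The deposited pileup is fragment coverage (signal), the deposited −log10 p-value and q-value are the caller's, and the deposited fold enrichment is a ratio to local input. The larger of ChIP and input is scaled to the smaller, so calling depth sets which weak peaks appear. Read counts were not used, and no interval for depth can be given. Headers show that replicates 1 and 3 share the input totals.

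Windows of 1 kb either side of every GENCODE release 44 start and flanks of 20 kb were intersected with peaks (python 3.11.15, numpy 2.4.6, pandas 2.3.3; scipy 1.17.1 for the check of exact tests), with 1 bp as overlap. Chromosome lengths of the reference held every peak. Covered shares were tested with an exact permutation test (two-sided, 20 ways of assigning 3 of the 6 libraries), adjusted by Benjamini-Hochberg over all genes with a peak of that mark in any of the 6 lists. Interval functions and tests were tested on simulated data. Alternatives were q of 0.001 or less, the canonical start, 2.5 kb windows, 500 bp of cover, 2 of 3 libraries, equal list lengths, other flanks (10 and 50 kb), leaving out libraries and the replicate block. Deviations of same-numbered libraries correlated positively in every pair in H3K4me1 (0.137 to 0.225), H3K4me2 (0.122 to 0.431), H3K4me3 (0.285 to 0.508) and H3K27ac (0.067 to 0.378). In H3K27me3 they ranged from −0.278 to 0.620. These values come from the data and not from the labels.

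Members and lists were chosen with earlier results of these data known. All members were named by class, with values per library for members that differed by 2 or more libraries or in class and for the 2 widest members of each role in H3K27ac and H3K27me3. Values of other members without overlap were added after they were seen. The state of 2 marker genes is not reported here.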

Additional observations from a re-analysis of the deposited data

How the results depend on the processing

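Of 540 values recomputed, 475 were labelled the same, 64 moved and 1 reversed. Counts had to stay within 1.5 times and mean flank cover within 1 SD, while covered shares of single genes were judged by direction alone. The replicate block leaves every mean difference as it was by arithmetic. The fall of H3K27ac at FZD7 kept its direction in each of 11 alternatives. It lay between −24.2 points in 2.5 kb windows and −60.5 points without DMSO replicate 2. The replicate block and the canonical start could not alter it, as FZD7 has 1 annotated start site. The rise of H3K27me3 there ranged from 11.3 points at a q of 0.001 or less to 33.4 points without Doxycycline replicate 3. The reversed value was H3K4me1 at FZD3, 8.16 points with the canonical start site. At a q of 0.001 or less, 20 members kept H3K4me1 in DMSO, 1 member separated in H3K27ac, 4 did not overlap in H3K27ac, the H3K4me3-only class held 4 in DMSO and 5 in Doxycycline, the neither class 3 and 3, and 5 members differed in class. Distal elements at that q were 12 and 12 active, 26 and 24 primed, and 1 and 3 poised, in DMSO and Doxycycline. With lists of equal length 1 member separated in H3K4me2, 2 did not overlap in H3K4me2, the H3K4me3-only class held 2 and 2, the neither class 2 in DMSO, 5 members differed in class and poised elements numbered 3 and 6. With the canonical start site the H3K4me3-only class held 3 and 3, and 1 member did not overlap in H3K27ac. In 2.5 kb windows 3 members did not overlap in H3K4me3, 0 in H3K27me3, and 0 were H3K4me3 only in DMSO. With 2 of 3 libraries 0 were H3K4me3 only in DMSO, 1 member (WNT7A) differed in class, primed elements in DMSO were 64, and poised elements were 12 and 16. Flanks of 50 kb gave 47 active elements in DMSO, 69 and 73 primed and 8 poised in DMSO, and flanks of 10 kb gave 17 active in Doxycycline, as wider or narrower flanks hold more or fewer elements. Where not stated, the cause was not tested.

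With the replicate block, the members whose 3 same-numbered differences had one sign numbered 7 in H3K4me1, 10 in H3K4me2, 10 in H3K4me3, 5 in H3K27ac and 6 in H3K27me3. These counts need only one sign per pair, a looser demand than no overlap. Deviations of same-numbered libraries correlated at 0.067 to 0.378 in H3K27ac and at −0.278 to 0.620 in H3K27me3. Libraries correlated best with their own number in 2 of 3 cases in H3K27ac, H3K27me3 and H3K4me2. In H3K4me1 and H3K4me3 they did so in 3 of 3. Leaving out 1 library at a time, members that separated ranged from 0 to 1 in H3K4me1, H3K4me2 and H3K27ac. Members without overlap ranged from 5 to 10 in H3K4me1, 2 to 8 in H3K4me2, 5 to 12 in H3K4me3, 2 to 6 in H3K27ac and 1 to 6 in H3K27me3, where 3 libraries against 2 overlap less readily. Leaving out 1 replicate number from both treatments, members of the H3K4me3-only class in DMSO ranged from 0 to 1, and those that differed in class from 3 to 4. Leaving out 1 library of 1 mark, an alternative chosen after seeing the data, those that differed in class ranged from 2 to 5. Weak or narrow peaks near the caller's threshold limit each presence call, and no library held a read count with which to weigh them.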
